A study of Mus musculus with 56 samples.

Results

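Hepatic transcripts that cycled over 24 h when food was given by day were described in the livers of mice on daytime-restricted feeding (DRF). The 28 DRF libraries were taken by their labels out of 56 in the series, and the other 28 came from mice fed at night (NRF, nighttime-restricted feeding), which served as the reference. All mice were female C57BL/6J, aged 9 weeks, and had followed the regimen for 7 days in a cycle with 12 h of light. Liver was sampled at zeitgeber times (ZT) counted in h from lights on, every 4 h from ZT0 to ZT24, from 4 animals each time. ZT0 to ZT12 was the light phase, to which food was restricted under DRF, and ZT24 was the same time of day as ZT0. Each library came from bulk liver, so fewer cells of a type and less RNA per cell cannot be told apart.

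The liver clock is a feedback loop in which the activators ARNTL (BMAL1) and CLOCK bind E-box sequences and switch on their own repressors, the PER and CRY proteins. A second arm couples the loop to ROR activators and REV-ERB repressors (NR1D1 and NR1D2), which compete for ROR elements in Arntl and other genes. The loop also drives the PAR bZIP factors DBP, TEF and HLF, whose D-box sites are contested by the repressor NFIL3. In liver, feeding and fasting act on many of the same genes through insulin, glucagon, nutrient sensors and body temperature.

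Each value below is a scaled count, the number of counts that the deposited value stood for, brought to a common scale in each library. Since gene length is not corrected for, levels are compared between libraries only. DRF libraries held from 379 to 686 M recovered counts (median 512 M, with M for 1000000 counts), and correlations across genes between replicates of a time lay between 0.980 and 0.990 over 42 pairs. Erythroid markers summed to between 567 and 2042 scaled counts in the 28 libraries, with means from 791 at ZT8 to 1553 at ZT0. Hepatocyte markers summed to between 105614 and 141344, and the summed markers of other cells reached at most 593 for sinusoidal endothelium, 1002 for Kupffer cells, 978 for stellate cells, 43.7 for cholangiocytes and 8.30 for lymphocytes. Of these markers 5 of 8 for hepatocytes, 6 of 8 for endothelium, 1 of 8 for Kupffer cells, 4 of 8 for stellate cells, 3 of 6 for cholangiocytes and 2 of 8 for lymphocytes were rhythmic by the test below. These counts are small and moved with the libraries used: the Kupffer count was 0 without replicate 1, the stellate count 2 without replicate 1 and 0 without replicate 4, the lymphocyte count 1 without replicate 2 and 0 without replicate 4, the cholangiocyte count 1 without replicate 2 and the hepatocyte count 3 without replicate 2. Of the 4 neutrophil, 6 erythroid, 1 adipocyte and 1 pancreas markers listed, 0 passed in limma, 0 were at an unadjusted p under 0.05, and 0 passed the rank test, while 1 neutrophil marker passed without replicate 3 and 1 without replicate 4. The part of these cells in the rhythms below was not tested.

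Sequences of clock gene promoters are shown first, marked for the kinds of element named above. Binding of the clock factors to them was not measured here. The windows come from RefSeq (GRCm38.p6) and run from 250 bases before to 50 bases after the start of the gene, printed 5′ to 3′ on the gene's strand. Capitals mark an exact match on either strand to the E-box CACGTG, to the D-box TTATGTAA or to the ROR element TAGGTCA, which reads as TGACCTA where it lies on the other strand. The window of Ciart, a repressor of the loop, held 3 E-boxes, that of Cry1 held 1, that of Per3 held 2 D-boxes, and those of Arntl and Nfil3 held 1 ROR element each. They were chosen for holding a match. Of the 16 clock genes with a window, 8 held none of the 3 elements, among them Dbp, Nr1d1, Nr1d2, Cry2, Clock, Npas2 and Rora, and of the 2 windows listed for Arntl the other held none.
Ciart, chr3:95882179-95882478, minus strand: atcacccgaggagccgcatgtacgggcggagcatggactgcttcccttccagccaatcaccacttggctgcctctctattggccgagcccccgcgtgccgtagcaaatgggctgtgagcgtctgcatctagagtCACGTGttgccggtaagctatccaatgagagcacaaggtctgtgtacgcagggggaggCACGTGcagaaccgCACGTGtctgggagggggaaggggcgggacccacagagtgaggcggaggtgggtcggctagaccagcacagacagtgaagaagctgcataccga
Cry1, chr10:85185005-85185304, minus strand: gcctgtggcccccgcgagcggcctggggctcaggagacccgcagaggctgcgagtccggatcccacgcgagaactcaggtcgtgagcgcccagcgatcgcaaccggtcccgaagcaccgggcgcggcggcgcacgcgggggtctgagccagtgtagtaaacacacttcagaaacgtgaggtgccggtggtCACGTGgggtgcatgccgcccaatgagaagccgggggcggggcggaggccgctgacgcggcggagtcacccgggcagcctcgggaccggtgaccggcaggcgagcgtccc
Per3, chr4:151044616-151044915, minus strand: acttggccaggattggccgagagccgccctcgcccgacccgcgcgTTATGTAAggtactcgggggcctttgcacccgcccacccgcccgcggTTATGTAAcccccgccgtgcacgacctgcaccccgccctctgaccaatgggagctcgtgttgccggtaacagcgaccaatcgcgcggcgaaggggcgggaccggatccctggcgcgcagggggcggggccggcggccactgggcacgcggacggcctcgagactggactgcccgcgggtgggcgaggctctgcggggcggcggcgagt
Arntl, chr7:113207261-113207560, plus strand: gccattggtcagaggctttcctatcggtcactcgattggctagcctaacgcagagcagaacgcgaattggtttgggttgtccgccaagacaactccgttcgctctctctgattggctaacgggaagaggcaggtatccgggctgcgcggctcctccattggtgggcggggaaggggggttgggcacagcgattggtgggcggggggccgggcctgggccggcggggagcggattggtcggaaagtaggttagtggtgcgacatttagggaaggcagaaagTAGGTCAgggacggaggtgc
Nfil3, chr13:52980990-52981289, minus strand: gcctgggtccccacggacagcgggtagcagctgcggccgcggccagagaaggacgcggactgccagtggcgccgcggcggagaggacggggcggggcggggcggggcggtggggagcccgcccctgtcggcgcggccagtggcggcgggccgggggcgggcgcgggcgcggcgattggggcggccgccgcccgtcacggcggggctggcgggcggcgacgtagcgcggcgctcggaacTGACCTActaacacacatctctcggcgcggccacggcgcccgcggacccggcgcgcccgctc

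Of 25415 genes tested, 9588 (37.7%) had a 24-h rhythm under DRF at an adjusted p under 0.05 in limma's F test of a cosine and a sine term, against 11559 at an unadjusted p under 0.05. The amplitude is given as the fitted peak-to-trough difference of log2(scaled count + 1), which understates the change of low genes. Its median over the rhythmic genes was 0.40, a 1.32-fold difference, and 90% of them stayed below 0.86. A rhythm of at least 2-fold was found in 618 genes (2.43% of those tested), of at least 4-fold in 72 and of at least 8-fold in 11. The share of rhythmic genes was 18.1% among genes with a mean scaled count under 1, 43.5% from 1 to 5, 54.7% from 5 to 20, 64.3% from 20 to 100 and 70.1% over 100. Protein-coding genes were rhythmic in 48.0% of cases, antisense transcripts in 35.3% and lincRNAs in 30.4%.

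Peak times under DRF were spread over the whole day, with more in the middle of the light phase and of the dark phase than at the transitions. The 4-h window centred on ZT4 held 2202 rhythmic genes and that on ZT8 held 1792. In the dark phase 1735 genes peaked around ZT16 and 1654 around ZT20, while the windows at the transitions held 1079 around ZT12 and 1126 around ZT0. Among the 618 rhythms of at least 2-fold, 144 peaked around ZT8, 135 around ZT4 and 120 around ZT20, against 47 around ZT0. Peaks lay in the light phase, when food was given, for 5109 genes (53.3%), a share that was 48.8% with median-of-ratios scaling and 34.4% (3217 of 9351) when the values were used as deposited. The median standard error of a peak time was 0.803 h.

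**Figure D1:**
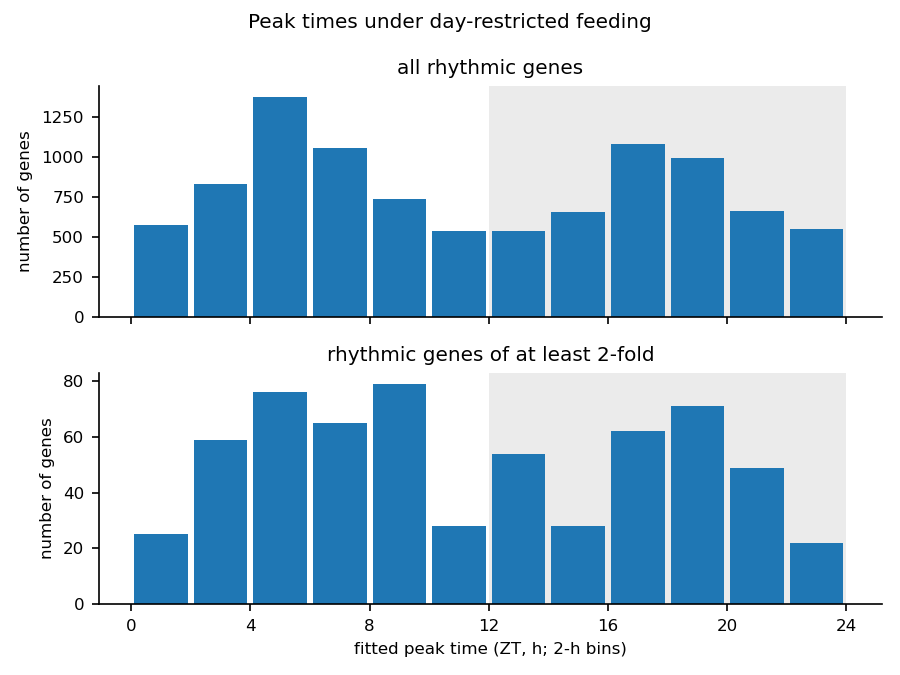
Number of genes by fitted peak time in 2-h bins, for the 9588 rhythmic genes (top) and the 618 of at least 2-fold (bottom). The shaded part of the axis is the dark phase, and the tallest bar of the upper panel, ZT4 to ZT6, holds 1373 genes.

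Long and short genes moved apart between libraries. The rank correlation, across genes, of gene length with a library's deviation from the mean lay between -0.30 and -0.06 in the 12 libraries of ZT0, ZT4 and ZT8, and between -0.0044 and 0.25 in the 16 of ZT12 to ZT24. It lay between -0.20 and -0.06 at ZT0 and between 0.11 and 0.25 at ZT24, the same time of day, with no overlap. With this trend removed 9599 genes were rhythmic and 52.4% of peaks lay in the light phase. The 7 times differed in any shape for 12021 genes (47.3%), of which 3401 did not pass the test for a 24-h cosine. ZT24 and ZT0 differed for 2163 genes (8.51%), 1039 of them higher at ZT24 (4.09%), and these included 1392 of the rhythmic genes (14.5%). The count of 2163 was 1659 with the length trend removed. It was 1273 without replicate 1, 1329 without replicate 2, 827 without replicate 3 and 628 without replicate 4.

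All 19 members of the clock lists were rhythmic under DRF, 15 of them by at least 2-fold, beside 37.7% and 2.43% of all genes. Arntl (ENSMUSG00000055116, chr7:113207465-113314126, plus strand), the activator at the centre of the loop, was at 6.29, 6.32, 6.82 and 7.65 scaled counts at ZT0 and at 52.1, 55.7, 59.4 and 62.2 at ZT12. Its level was high in every library of ZT8, ZT12 and ZT16 and low in every library of ZT0 and ZT24, with no overlap. The fitted amplitude was 3.0 ± 0.20 (log2 ± SE, 28 libraries), with a peak at ZT12.0 ± 0.29 and an adjusted p of 1.1e-10. Clock, its partner, peaked later at ZT14.8 ± 0.41 with an amplitude of 1.38 ± 0.15, and was higher at ZT24 (66.8 to 77.8) than at ZT0 (33.9 to 53.0; adjusted p = 0.0016). Npas2, which can replace Clock, was at 3.25 to 4.01 scaled counts at ZT12 and at 0.225 to 0.492 at ZT20, and peaked at ZT13.2 ± 0.45. Rora, which encodes a ROR activator, was at 141 to 240 scaled counts in all 28 libraries and peaked at ZT16.8 ± 0.60 with an amplitude of only 0.43 ± 0.08.

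The repressors peaked at different times, from the dark phase to late in the light phase. Nr1d1 and Nr1d2, which encode the REV-ERB proteins, peaked at ZT20.8 ± 0.39 and ZT21.6 ± 0.23. Nr1d1 was at 3.13, 3.39, 3.79 and 6.22 scaled counts at ZT12 and at 21.2, 22.5, 24.7 and 48.1 at ZT20, so the times did not overlap although 1 library at ZT20 lay far above the others. Nr1d2 moved from between 31.9 and 43.4 at ZT12 to between 150 and 189 at ZT24, an amplitude of 2.23 ± 0.13 (adjusted p = 9.4e-12). Per3 peaked at ZT1.9 ± 0.26, with 43.9, 45.2, 46.3 and 48.0 scaled counts at ZT0 against 4.49, 5.25, 6.12 and 6.76 at ZT16, and Ciart peaked at ZT1.0 ± 0.51. Ciart had a mean of only 0.633 scaled counts. It was lower at ZT24 (0.749 to 1.62) than at ZT0 (1.49 to 2.07), with an adjusted p of 0.0027 by limma's contrast. Per2 (chr1:91415982-91459324, minus strand) followed at ZT4.0 ± 0.35, from between 11.2 and 13.6 at ZT16 to between 84.7 and 99 at ZT4. Cry1 was last at ZT9.3 ± 0.28, with 139, 146, 147 and 147 scaled counts at ZT8 and 30.2, 30.7, 31.5 and 41.4 at ZT0.

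Several repressors had a small fitted amplitude under DRF or passed narrowly. Per1 was at 15.5 to 28.9 scaled counts at ZT0 but only at 6.72 to 15.4 at ZT24, the same time of day (adjusted p = 0.016), and lay between 2.90 and 10.2 from ZT4 to ZT20. Its 24-h rhythm passed narrowly (amplitude 1.04 ± 0.33, adjusted p = 0.041) and did not pass without ZT0 (0.46, adjusted p = 0.38), with any replicate left out (adjusted p from 0.085 to 0.13) or with the replicate block (adjusted p = 0.058). Cry2 stayed between 28.8 and 48.4 outside ZT12, where it was at 21.3 to 23.9, with an amplitude of 0.45 ± 0.13 (adjusted p = 0.025, and 0.066 without ZT0, 0.15 without replicate 1 and 0.10 without replicate 3). Bhlhe40 and Bhlhe41, which encode the DEC repressors, had amplitudes of 0.92 ± 0.21 and 0.42 ± 0.09, the second at a level under 1 scaled count. The fitted amplitude understates the change of Bhlhe41, whose mean was 0.550 at ZT0 and 0.0955 at ZT4.

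The PAR bZIP factors peaked early in the light phase, Dbp and Tef close to its start and Hlf about 2 h later. Dbp (ENSMUSG00000059824, chr7:45705088-45710203, plus strand) was at 35.2, 38.5, 39.8 and 42.1 scaled counts at ZT0 and at 1.08, 1.97, 2.22 and 3.22 at ZT16. It had the largest amplitude of the clock lists, 3.57 ± 0.23, with a peak at ZT0.4 ± 0.28 (adjusted p = 4.5e-11). Tef was at 72.2 to 82.6 at ZT0 and 19.2 to 22.8 at ZT12 and peaked at ZT0.5 ± 0.19, and Hlf peaked at ZT2.7 ± 0.31. Nfil3, their antagonist, peaked at the opposite time, ZT11.7 ± 0.39, from between 8.24 and 11.8 at ZT0 to between 44.8 and 67.6 at ZT16.

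**Figure D2:**
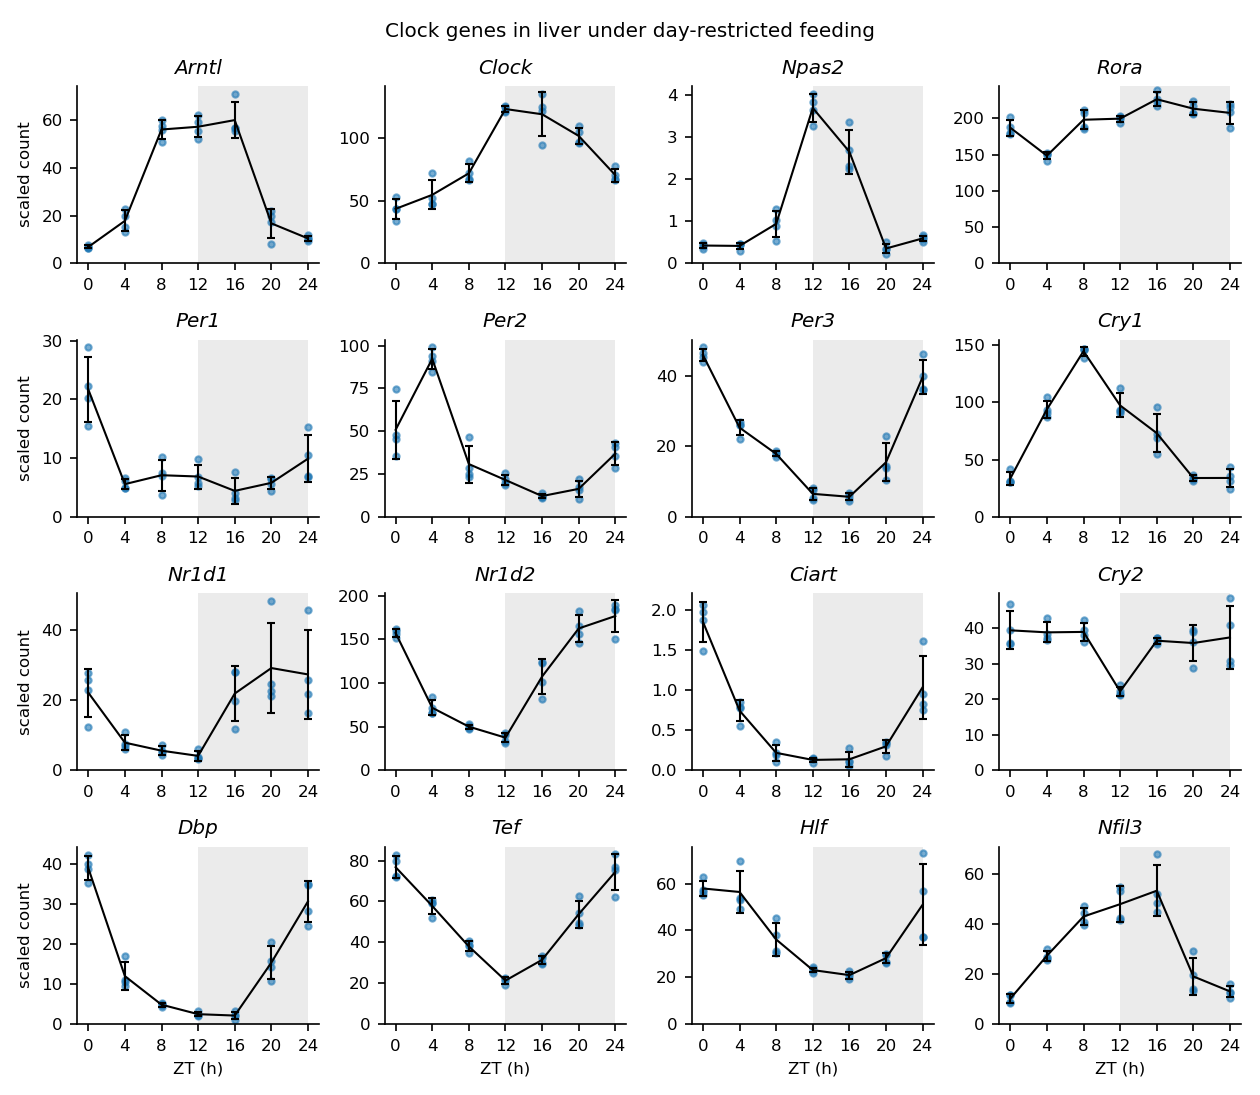
Scaled counts of 16 clock genes against ZT (h) under DRF, where points are the 4 animals at each time, lines join means and bars are SD. Arntl, Nfil3 and Npas2 are high around ZT12 and Dbp, Tef and Per3 around ZT0 and ZT24, while Per1 is highest at ZT0.

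The clock genes had different rhythms under NRF, tested as the interaction of regimen with the cosine and sine terms over 56 libraries. The interaction passed for 9852 genes (38.8%), for 6523 of the 9588 rhythmic genes (68.0%) and for 18 of the 19 clock members, all but Rora (adjusted p = 0.09). NRF itself gave 9793 rhythmic genes (38.5%), 5622 of them rhythmic in both regimens, and the fitted peaks of 3737 of these (66.5%) lay at least 6 h apart while 674 (12.0%) lay under 2 h apart. For the clock members the median distance was 11.1 h. Under NRF Dbp peaked at ZT10.6 with an amplitude of 5.37, against 3.57 under DRF, and Nr1d1 at ZT7.9 with 6.06 against 2.68. The fitted amplitude was smaller under DRF for 17 of the 19, the exceptions being Rora and Hlf (1.53 under DRF and 1.36 under NRF), and amplitude was not tested apart from peak time.

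The largest amplitudes were named for each 4-h window among annotated genes with a mean of at least 5 scaled counts. Around ZT0 these were Dbp, Gm14097 and Mt1, around ZT4 Tsku, Acot3 and Rn7s2, around ZT8 Slc41a2, Tfrc and Pnpla3, around ZT12 Tubb2a, Arntl and Ppp1r3c, and around ZT20 Rgs16, Mt2 and Gpcpd1. The rhythm of Rn7s2 is uncertain, as described below with the genes around ZT16. Rgs16 (ENSMUSG00000026475, chr1:153740349-153745468, plus strand), a regulator of G protein signalling, was at 0.0679, 0.270, 0.299 and 1.11 scaled counts at ZT8 and at 13.7, 14.9, 28.4 and 29.7 at ZT24. Its amplitude was 4.40 ± 0.38 and its peak ZT20.7 ± 0.33 (adjusted p = 9.0e-09), and it was already at 9.45 to 15.2 at ZT16, above all libraries of ZT4, ZT8 and ZT12. Tubb2a (chr13:34074274-34078007, minus strand), a beta-tubulin, showed the opposite course, with 70.2, 71.6, 73.8 and 74.4 at ZT12 and 4.51, 4.59, 5.47 and 6.75 at ZT24 (amplitude 3.70 ± 0.22). The RefSeq window of Tubb2a held 1 cAMP element, TGACGTCA.

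Both metallothionein genes, Mt1 and Mt2, which encode metal-binding proteins, peaked late in the dark phase. Mt2 was at 1.06, 1.61, 1.69 and 2.24 scaled counts at ZT4 and at 37.0, 63.2, 64.0 and 120 at ZT24, with an amplitude of 4.04 ± 0.59, and 73% of its exon length overlaps a gene on the other strand. Mt1 peaked at ZT22.4 ± 0.44 with an amplitude of 3.04 ± 0.33. Tsku, a secreted protein of the liver, was at 266, 272, 276 and 313 at ZT4 and at 12.2 to 35.9 at ZT16, and no library of another time reached the ZT4 values. Tfrc, the transferrin receptor for iron uptake, and Slc41a2, a magnesium transporter, were highest at ZT8, with 34.1 to 61.3 and 117 to 136 scaled counts, and lowest at ZT20 (4.60 to 7.67) and ZT0 (13.7 to 22.2). Gm14097 (chr2:132694432-132698523, minus strand), an antisense transcript, was at 22.4 to 36.1 at ZT0 and 1.95 to 2.88 at ZT12. The smallest p-values belonged to Wee1, Tef, Gm14097, Chka, Npc1 and Nr1d2. Wee1, a kinase that holds back mitosis, was at 26.3, 26.9, 27.5 and 27.5 at ZT4 and at 3.53, 4.43, 4.44 and 4.47 at ZT16 (amplitude 2.44 ± 0.11, adjusted p = 8.5e-14). Chka, the first enzyme of phosphatidylcholine synthesis, peaked at ZT11.8 ± 0.21, and Npc1, a lysosomal cholesterol exporter, at ZT21.2 ± 0.21.

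The 3 genes of the ZT16 window are uncertain, because each lies inside or across another gene. Gm47287 (chr12:69159437-69159506), annotated as a miRNA, lies within Rn7s1, which encodes the 7SL RNA of the signal recognition particle (chr12:69159295-69159594), on the same strand. It was under 0.01 scaled counts in 17 DRF libraries and between 173 and 964 in 11, all of them at ZT12, ZT16 or ZT20. Gm47305 (chr12:69361270-69361339) lies likewise within Rn7s2 (chr12:69361182-69361481), was under 0.01 in 18 libraries and between 475 and 1203 in 10, and Rn7s2 was at 290 to 514 at ZT12 against 2164 to 3422 at ZT0. At ZT20 Rn7s2 was at 443, 478, 479 and 2218, and Gm47305 at 0.00197, 475, 512 and 954. At ZT16 they were at 363, 365, 397 and 1653, and at 0.00163, 647, 819 and 1203. The rhythm of Rn7s2 is therefore uncertain too. Gm20425 (chr9:103190208-103230307) overlaps Trf, the transferrin gene (chr9:103204001-103230444), on the same strand and was at 0 in 23 libraries and at 267 to 1215 in 5. Under NRF 8 libraries lay above 0.01 for each of the 3, from 108 to 994 for Gm47287, from 81.3 to 1006 for Gm47305 and up to 1143 for Gm20425, which was at 0.307 in 1 of its 8 and at 20 or more in 7. In all, 19 genes were under 0.01 in some DRF library and at 20 or more in another, and without them 9585 genes were rhythmic and 615 by at least 2-fold.

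Gene lists were read against the share of rhythmic genes, which rose with level as given above. The 27 function lists held 447 tested genes, of which 333 had a mean of at least 20 scaled counts. Of the 447, 289 (64.7%) were rhythmic. At a mean of at least 20 scaled counts, 69.7% of list members and 66.0% of all genes were rhythmic, so a share near these values does not set a list apart. The 66.0% is no reference for lists of lower genes, where the share was 43.5% at a mean of 1 to 5 and 54.7% at 5 to 20. Summed over a library, the 13 immediate early genes had a median of 44.3 scaled counts. The 15 cell cycle genes had 68.4 and the 27 ribosome biogenesis genes 417.

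Of genes that build fat from carbohydrate, all 14 were rhythmic and 11 by at least 2-fold, with a median amplitude of 1.69 beside 0.40 for all rhythmic genes and a mean peak at ZT10.1. Srebf1, the insulin-driven activator of this pathway, was at 394, 412, 425 and 470 scaled counts at ZT4 and at 55.0, 76.6, 88.9 and 99.7 at ZT20 (amplitude 2.28 ± 0.19, peak ZT6.7 ± 0.28). Other members peaked later or at about the same time, with Elovl6 at ZT7.0, Thrsp and Fasn at ZT8.1, Acly at ZT9.4 and Pnpla3, a lipid droplet protein, at ZT9.8 ± 0.28 with the largest amplitude of the list (2.79 ± 0.20). Acacb, Scd1, Me1 and Elovl5 peaked later, from ZT13.1 to ZT14.5, and the exon length of Scd1 and Me1 could not be checked, which leaves their amplitudes uncertain.

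Cholesterol genes peaked in the same part of the day, with 17 of 24 rhythmic, a median amplitude of 1.20 and a mean peak at ZT10.8. Of these 14 peaked in the light phase, and 9 of 18 did with the values as deposited. Insig1, which restrains SREBP activation, was at 297 to 451 at ZT8 and 98.7 to 123 at ZT20 (amplitude 1.54 ± 0.16), and Mvd, an enzyme of the mevalonate pathway, had the largest amplitude (1.78 ± 0.21, peak ZT8.5 ± 0.43). Insig1 and Mvd were lower at ZT24 than at ZT0 (adjusted p = 0.029 and 0.017 by limma's contrast). Srebf2, which encodes an activator of the pathway, did not pass (adjusted p = 0.082).

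Genes of protein folding in the endoplasmic reticulum were rhythmic in 17 of 22 cases, 14 of them with peaks in the light phase. Hspa5, which encodes the chaperone BiP, was at 204, 229, 230 and 263 scaled counts at ZT4 and at 29.5, 40.5, 41.7 and 43.9 at ZT20 (amplitude 1.93 ± 0.27, peak ZT5.6 ± 0.46). Creld2, another ER stress target, was at 65.7 to 102 at ZT4, above every other library (5.75 to 41.8). Trib3, a pseudokinase of the ATF4 arm, peaked at ZT19.7 ± 0.45, and Xbp1, Atf4 and Ddit3 did not pass (adjusted p = 0.43, 0.27 and 0.093). The list of heat shock and cold-inducible genes passed in 6 of 17 cases (35.3%), and in 4 of the 7 with a mean of at least 20 scaled counts (57.1%, beside 66.0% of all genes at that level). The 6 were 5 of 15 heat shock genes and the cold-inducible Rbm3 (amplitude 0.72 ± 0.15), led by Hsp90aa1 (130 to 204 at ZT4, 31.2 to 58.0 at ZT24), and all 6 peaked between ZT4.9 and ZT8.1. Without replicate 1, 2 or 4 the count was 3, and with the values as deposited it was 2. Rbm3 was lower at ZT24 than at ZT0 (adjusted p = 0.0018 by limma's contrast). Hspa1a, Hspa8 and Cirbp, the other cold-inducible gene, did not pass (adjusted p = 0.22, 0.78 and 0.067).

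Ribosome biogenesis genes had an early peak, with 14 of 27 rhythmic at a mean of ZT4.7, led by Rrp12 (amplitude 1.10 ± 0.20), Mybbp1a (0.89 ± 0.09) and Nolc1 (0.80 ± 0.21). The ribosomal proteins themselves were rhythmic in 10 of 28 cases (35.7%), 5 with peaks in each phase and none by 2-fold. For 0 of the 10 did the rhythm differ between regimens by limma's interaction test, beside 68.0% of all rhythmic genes, with 2 at an unadjusted p under 0.05. This does not show the same rhythm in both regimens. Rps24, Rpl27 and Rpl19, with the largest amplitudes, did not pass limma's F test under NRF (adjusted p = 0.096, 0.42 and 0.23). The count of 10 was 6 without replicate 2 and 6 without replicate 4. Proteasome subunits were rhythmic in 22 of 25 cases but with a median amplitude of only 0.33 and a mean peak at ZT11.9, which lies at the border of the phases: 12 peaked in the light phase, and 0 of 18 did with the values as deposited. Psmd11, a lid subunit, was at 112 to 125 scaled counts at ZT12 and 79.7 to 83.8 at ZT4. Nuclear-encoded respiratory chain genes passed in 13 of 26 cases with a median of 0.28 (8 without replicate 3), and Cox5b stood apart from the rest with 1.33 ± 0.16.

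**Figure D3:**
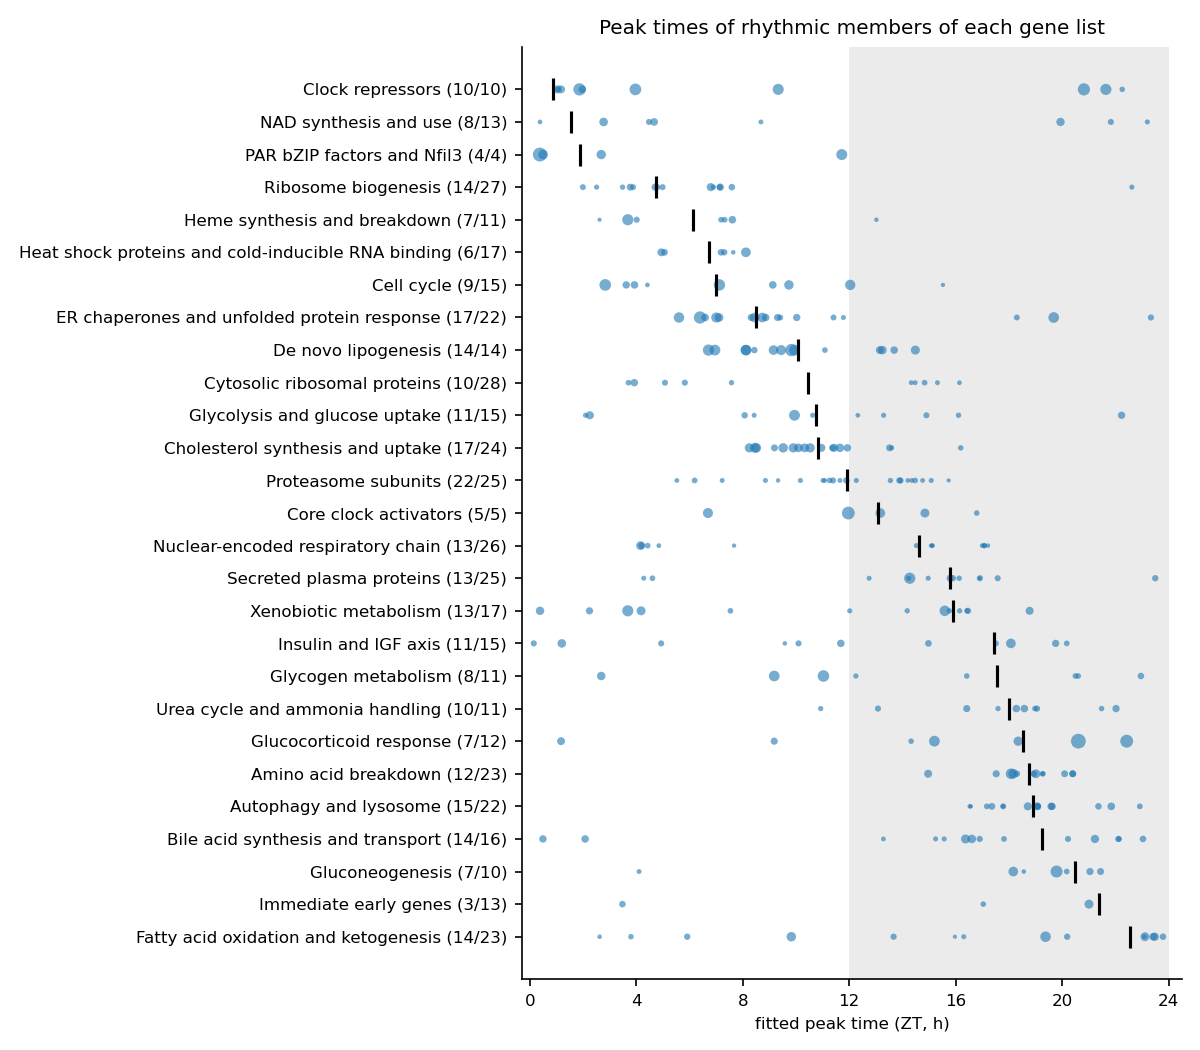
Fitted peak time (ZT, h) of every rhythmic member of the 27 function lists under DRF, with dot area growing with amplitude, a black bar at the circular mean of each list and, in brackets, rhythmic over tested members. Lipogenic genes lie between ZT6.7 and ZT14.5, and amino acid breakdown and autophagy genes between ZT15 and ZT23.

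Of the gluconeogenesis genes 7 of 10 were rhythmic, 6 of them with peaks in the dark phase, when DRF mice had no food, and with a mean peak at ZT20.5. Pck1, the key enzyme of the pathway, was at 924 to 1081 at ZT0 and 102 to 190 at ZT4 (amplitude 2.60 ± 0.36, peak ZT19.8 ± 0.49), a drop within 4 h with no overlap, and at 647 to 992 at ZT16. G6pc, which releases free glucose, did not pass (adjusted p = 0.073). Amino acid breakdown genes were rhythmic in 12 of 23 cases, all 12 with peaks in the dark phase, led by Got1 (277 to 452 at ZT16, 87.6 to 97.7 at ZT4, amplitude 2.0 ± 0.18), Sds and Tdo2. Urea cycle genes passed in 10 of 11 cases, 9 with peaks in the dark phase and none reaching 2-fold. Arg1 was at 1292 to 1494 at ZT16 and 732 to 774 at ZT4 (amplitude 0.94 ± 0.09), and Cps1 at 26884 to 34223 and 16150 to 17826. The exon lengths of Arg1, Cps1 and Tdo2 could not be checked.

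Autophagy and lysosome genes were rhythmic in 15 of 22 cases, all 15 with peaks between ZT16.5 and ZT22.9, including Ulk1 (0.86), Atg14 (0.90), Wipi1 (0.91) and Lamp2 (0.73). Map1lc3b, the LC3 protein of autophagosomes, was at 11.6, 13.6, 22.4 and 26.4 at ZT20 and at 6.52 to 7.65 at ZT12. Tfeb, the main activator of lysosomal genes, did not pass (adjusted p = 0.97). Fatty acid oxidation and ketogenesis genes were rhythmic in 14 of 23 cases with peaks spread around the day, and in 8 without replicate 4. Cpt1a, the gate of mitochondrial fat import, was at 231 to 254 at ZT0 and 99.6 to 102 at ZT8 (peak ZT23.1 ± 0.27), and its activator Ppara peaked at ZT23.5 with 1.16. Pdk4, which blocks pyruvate oxidation, peaked in the feeding phase at ZT9.8 ± 0.62. Hadha and Fgf21 did not pass (adjusted p = 0.87 and 0.082).

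Glucose storage genes were divided. Ppp1r3b and Ppp1r3c, which bring the phosphatase to glycogen, peaked at ZT9.2 ± 0.41 and ZT11.0 ± 0.29 with amplitudes of 2.04 ± 0.21 and 2.40 ± 0.16. Gys2, glycogen synthase of liver, peaked at ZT2.7 ± 0.25, from between 231 and 262 at ZT16 to between 506 and 628 at ZT24. In the insulin axis 11 of 15 passed, with Irs2, the insulin receptor substrate, at 56.7 to 67.2 at ZT16 and 10.7 to 16 at ZT4, and Igfbp1 not passing (adjusted p = 0.14). Of 15 glycolysis and glucose uptake genes 11 passed, and Slc2a2, the main glucose transporter of hepatocytes, peaked at ZT22.2 ± 0.40 with 0.88 ± 0.09.

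**Figure D4:**
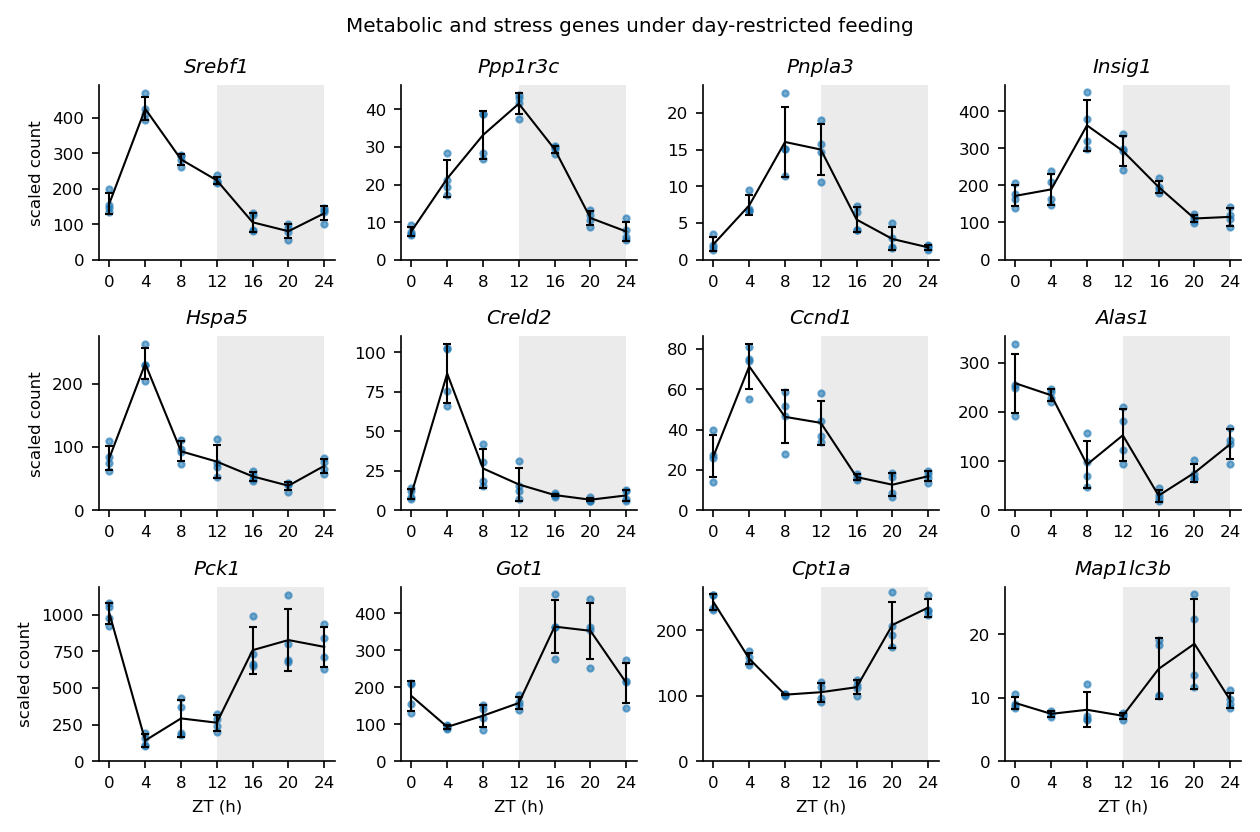
Scaled counts of 12 metabolic and stress genes against ZT (h) under DRF, with points for the 4 animals at each time, means joined by lines and SD as bars. Srebf1, Hspa5, Creld2 and Ccnd1 are highest at ZT4, while Pck1, Got1 and Map1lc3b are low at ZT4 and high at ZT16 and ZT20.

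Bile acid genes were rhythmic in 14 of 16 cases, 12 of them with peaks in the dark phase, but Cyp7a1, the rate-limiting enzyme, did not pass (adjusted p = 0.32). Abcb11, the bile salt export pump, was at 813 to 1032 at ZT16 and 347 to 442 at ZT4 (amplitude 1.23 ± 0.09), and differed between ZT0 and ZT24 (adjusted p = 0.0071). Heme genes passed in 7 of 11 cases, 6 with peaks in the light phase, and in 4 without replicate 1 or without replicate 4. Alas1, the first enzyme of heme synthesis, was at 192 to 338 at ZT0 and 18.1 to 46.4 at ZT16 (amplitude 2.23 ± 0.43). At ZT24 it was at 93.2 to 168, below all libraries of ZT0 (adjusted p = 0.063 by limma's contrast). Of the 11 heme genes 4 differed between ZT0 and ZT24, beside 8.51% of all genes. Of the xenobiotic genes 13 of 17 passed, with Cyp2a5 at ZT4.2 ± 0.44 and Cyp2b10 at ZT15.6 ± 0.58. Cyp2a5 was lower at ZT24 than at ZT0 (adjusted p = 0.029 by limma's contrast). Among NAD genes 8 of 13 passed. Nampt, the salvage enzyme, was at 47.5 to 52.4 at ZT4 and at 22.0 to 33.6 at ZT20, with its lowest mean at ZT16 (26.3; amplitude 0.96 ± 0.09).

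Cell cycle genes passed in 9 of 15 cases. Beside Wee1, Ccnd1, which encodes cyclin D1, was at 55.3 to 81.1 at ZT4 and 6.80 to 18.6 at ZT20, and Cdkn1a, the inhibitor p21, at 4.38 to 6.30 at ZT12 and 0.267 to 0.384 at ZT24. Cdk1 and Top2a did not pass (adjusted p = 0.49 and 0.33). Of 12 glucocorticoid-responsive genes 7 were rhythmic, with Zbtb16 at 251 to 685 at ZT16, whereas Fkbp5, Sgk1, Tat and Dusp1 did not pass (adjusted p = 0.05, 0.71, 0.37 and 0.89). The immediate early genes were the list with the lowest share, 3 of 13 (23.1%), namely Junb, Jund and Klf6, and 7 of the 13 differed between ZT0 and ZT24, beside 8.51% of all genes. The first count was 8 without ZT24 and 6 by the rank test combined with the F test. The second was 6, 9, 4 and 4 without replicates 1, 2, 3 and 4, beside 5.01%, 5.23%, 3.25% and 2.47% of all genes. Jund had its highest mean at ZT0 (16.6) and its lowest at ZT24 (8.35), the same time of day (adjusted p = 1.2e-06 by limma's contrast). Its 24-h rhythm is therefore uncertain, and 52.6% of its exon length overlaps a gene on the other strand. Secreted plasma proteins passed in 13 of 25 cases, 11 with peaks in the dark phase, led by the iron hormone Hamp (3763 to 4998 at ZT16, 549 to 1981 at ZT0) and the fibrinogen chains Fgg and Fga, all 3 with an unchecked exon length. Albumin did not pass (adjusted p = 0.82).

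Promoter motifs were counted over the 13073 tested genes with a RefSeq window, as a description with no test. The E-box was present for 10.7% of all of them, 12.0% of rhythmic genes and 24.3% of the 37 genes of at least 2-fold with a peak around ZT0, the highest of the 6 windows, the lowest being 8.33% of 60 genes around ZT16. Among all rhythmic genes it lay between 9.34% around ZT12 and 14.2% around ZT20. The ROR element TAGGTCA was present for 2.64% of all, and for 10.2% of the 59 genes of at least 2-fold around ZT12 (6 genes), again the highest, against 1.32% of 76 around ZT4. The D-box (TTATGTAA or TTACGTAA) was present for 1.03% and for 3 of the 92 such genes around ZT8 (3.26%), with 0 or 1 gene in each of the other windows. The cAMP element TGACGTCA was present for 3.08% of all and the sterol element TCACNCCAC for 1.54%. The heat shock element was present for 0.63% of all and for 0.57% of rhythmic genes. In the list of heat shock and cold-inducible genes it was present for 4 of the 12 members with a window (33.3%). That list was chosen by function, whether its members were rhythmic or not, so its share says nothing about rhythms.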

How the data were processed

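RNA was sequenced from liver of 56 mice; per the labels the libraries were ribosome-depleted and strand-specific, while the molecule field says polyA RNA, and the protocol text was followed. The submitters' processing notes name CASAVA 1.8, featureCounts 1.5.0-p3 and the builds mm10 and GRCm38.p6; the use of strand in counting is not given in the sources used here. The gene values that the authors deposited as TPM are a log-type score. A deposited value times exon length (GENCODE vM21, GRCm38) followed a·ln(1 + f·k) with whole counts k, a library factor a and a library scale f. The curve was fitted on 12112 genes and tested on 12111 left out, where 96.6% of values between 10 and 100 counts lay within 0.05 of a whole number, with 10% by chance. Of 25415 listed genes 23001 came out whole at their annotated exon length, 2245 did so at another length found by search, and for 169 the length could not be checked. Recovered counts exceed the depth of the study, so they are not called reads, and depth gives no counting error here. The precision of each value comes from the spread between 4 animals. The transcript and circRNA tables were not used.

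Scaled counts (f·k) were analysed as log2(scaled count + 1) in limma 3.58.1 (R 4.3.3) with a trend in the prior variance: the F test of a 24-h cosine and sine over 28 DRF libraries, the F test over 7 times, the contrast of ZT24 with ZT0 and the interaction with regimen over 56 libraries. p-values were adjusted by Benjamini-Hochberg over all 25415 genes, and the threshold was 0.05. The design had assumed linear TPM, and its tests were kept on scaled counts. MetaCycle, which the study used, was not run, and a rank test against 12 cosine templates and its combination with the F test stood as alternatives. Whether animals of a time shared a cage is not given in the sources used here, so p-values measure the spread between these samples. The code was tested on simulated data. The authors' comparison columns were not present, and 0 columns of other samples were found.

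Named genes were the 3 annotated genes with the largest amplitude in each 4-h window of peak time (mean of at least 5 scaled counts), the 6 smallest p-values, every clock gene and, for each of 27 function lists, up to 3 rhythmic members with the largest amplitude. Results of some of these genes are not reported here. Genes named in other places, and those named as not passing, were chosen from the lists after their values were seen. The members and lists were chosen with earlier results of these data known. Symbols were matched by GENCODE, and Trf was matched by its RefSeq synonym.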

Additional observations from a re-analysis of the deposited data

Results flagged for a closer look

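Of the 74 groups of 4 animals at the highest and the lowest time of the 37 genes examined, 6 held a value far from the other 3, where chance flags about 1 in 20. Arntl at ZT16 had 1 library at 71.2 against 55.6 to 56.9, Cry1 had 1 at ZT0 at 41.4 against 30.2 to 31.5 and 1 at ZT8 at 139 against 146 to 147, and Nr1d1 had 1 at ZT20 at 48.1 against 21.2 to 24.7. Wee1 at ZT16 had 1 library at 3.53 against 4.43 to 4.47, and Nr1d2 at ZT24 had 1 at 150 against 183 to 189. In none of these groups did the value reach the range of the opposite time. The highest and lowest times did not overlap for 100 of the 102 named genes, so this separation is not particular to these groups.

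The rhythm differed between DRF and NRF, by the interaction term in limma over 56 libraries, for 34 of these 37 genes. It did so for 38.8% of all genes, 68.0% of rhythmic genes and 539 of the 618 of at least 2-fold. The 37 were chosen for a large amplitude, a small p or the clock lists, so their count does not set them apart. For clock genes the adjusted p was 2.4e-23 for Dbp, 5.0e-20 for Arntl, 1.3e-22 for Tef, 5.9e-27 for Nr1d2, 2.1e-11 for Clock, 2.2e-21 for Npas2, 3.3e-10 for Per1, 4.0e-20 for Per2, 2.1e-21 for Per3, 6.8e-23 for Cry1, 1.4e-06 for Cry2, 2.1e-21 for Nr1d1, 1.1e-08 for Bhlhe40, 2.3e-08 for Bhlhe41, 1.0e-16 for Ciart, 4.2e-16 for Hlf and 2.6e-21 for Nfil3. For the others it was 5.0e-25 for Gm14097, 3.1e-13 for Mt1, 8.4e-14 for Tsku, 1.6e-12 for Acot3, 0.039 for Rn7s2, 6.0e-19 for Slc41a2, 3.2e-17 for Tfrc, 2.6e-14 for Pnpla3, 6.7e-25 for Tubb2a, 9.3e-20 for Ppp1r3c, 0.048 for Gm47287, 3.9e-17 for Rgs16, 2.7e-12 for Mt2, 2.5e-20 for Gpcpd1, 2.0e-26 for Wee1, 3.9e-25 for Chka and 9.6e-24 for Npc1. Rn7s2 and Gm47287 lie among the overlapping genes described above.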

How the results depend on the processing

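The number of rhythmic genes (9588) lay between 7362 and 11013 over 14 other settings and was 9585 without the 19 genes that step from near 0, a setting chosen after seeing the data. The number of at least 2-fold was 1369 with a pseudocount of 0.1 and 592 to 907 in the others. The number with a peak in the light phase was 3217 with the values as deposited, whose library factor was higher at ZT12 to ZT24 than at ZT0 to ZT8 in most libraries; the cause was not tested. The number differing between ZT0 and ZT24 was 628 to 1329 with a replicate number left out, where fewer samples were tested. The numbers for the 7 times and for the interaction stayed within 1.5 times. The number of rhythmic members moved by over 1.5 times under some setting in 6 of 27 function lists (13 values) and in 6 marker lists (20 values), as given beside the lists for the libraries left out; heme genes fell to 4 with the values as deposited. Of 102 named genes 10 lost their call under some setting, 5 of them (Per1, Cry2, Gm20425, Igfals and Gabarapl1) by an adjusted p of up to 0.38, 0.20, 0.62, 0.086 and 0.22, and the rest were Nolc1, Cpox, Dnaja1, Ndufa1 and Rpl27; no peak moved by more than 6 h. Replicate numbers mark separate animals in each group and pair no samples: 4 of 84 same-number pairs had deviations correlated over 0.1, and 6 of 28 libraries correlated best with their own number. With the replicate block 9266 genes were rhythmic, and the 102 named genes kept their calls except Per1. Amplitudes of low genes depend on the pseudocount.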
